A study of Mus musculus with 10 samples.

Results

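The cytokines interleukin (IL)-4, IL-5 and IL-13, the epithelial alarmins IL-33 and thymic stromal lymphopoietin (TSLP), and the receptor chains and transcription factor through which they act were examined in mouse lung. The set was defined by gene symbol and held 10 genes (Il4, Il5, Il13, Il33, Tslp, Il1rl1, Il4ra, Il13ra1, Il13ra2 and Stat6) of the 24394 gene symbols in the expression table. All 10 were present, with 16 transcript rows among them. RNA-seq had been performed on 10 libraries of lung tissue from young adult female BALB/c mice. Saline mice (n = 3) received saline only, OVA mice (n = 3) were sensitized by intraperitoneal injection of ovalbumin in alum and challenged through the nose with ovalbumin, and Herb mice (n = 4) underwent the same ovalbumin protocol together with an oral ethanol extract of Descurainia sophia seeds (DSE). Oral vehicle was the comparator of the extract, and no group of extract without ovalbumin was analysed here. OVA vs. Saline addresses the asthma model, Herb vs. OVA the extract, and Herb vs. Saline what still differed from the controls.

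In allergic airway inflammation, damaged or stimulated airway epithelium releases IL-33 and TSLP, and these alarmins act on T helper 2 cells, innate lymphoid cells and mast cells. Those cells secrete IL-4, IL-5 and IL-13. IL-5 sustains eosinophils, while IL-4 and IL-13 bind receptors that contain IL-4Rα, activate STAT6 and turn on mucus genes in the epithelium and alternative activation genes in macrophages.

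Values are FPKM, that is, fragment counts scaled for transcript length and for the fragments mapped in the library, and a gene value is the sum of its rows. Log2 fold changes are differences of mean log2(FPKM + 1) fitted with limma, and a gene is called where its adjusted p is under 0.05. Library composition was unequal across groups, which touches every member. Depth, estimated in multiples of 1000000 fragments, was 14.9 to 21.4 in Saline, 20.3 to 29.4 in OVA and 14.7 to 21.3 in Herb. The share of fragments on protein-coding RefSeq transcripts was 33.0% to 33.3% in Saline, 11.9% to 14.9% in OVA and 19.3% to 25.8% in Herb, while Rn45s, the ribosomal RNA precursor, was listed at 1201 to 1386 FPKM, 10014 to 13531 FPKM and 3230 to 7019 FPKM. The median log2 fold change of the 11205 gene sums tested was not at 0: it was -0.75 in OVA vs. Saline, 0.48 in Herb vs. OVA and -0.27 in Herb vs. Saline. For this reason each member is given on the deposited scale and after rescaling every library to the same 75th percentile of gene values, which moved the 3 medians to -0.02, 0.04 and 0.02. Housekeeping gene Gapdh was listed at 0 in 9 of the 10 libraries, so an exact 0 in this table can be a failed estimate.

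The sequence that separates 2 forms of one receptor is shown first, because the Il1rl1 results depend on it. Il1rl1 encodes ST2, the receptor of IL-33. The membrane form, NM_001025602 (GRCm38, chr1:40439627-40465415, plus strand, 11 exons, 567 codons), carries the transmembrane part and the signalling domain. The soluble form, which binds IL-33 without signalling, was represented by NM_001294171 (chr1:40429570-40446723, 8 exons, 337 codons) and NM_010743 (chr1:40439776-40448148, 8 exons, 337 codons). The membrane and soluble transcripts share their exon up to base 40446675 and part there: the membrane form is spliced to an exon that begins at base 40450075, and the soluble forms read on into sequence that is intronic in the membrane form and stop early. The lines show the last 15 shared bases in lower case and the first 15 distinct bases in capitals, from the RefSeq transcripts on GRCm38.
Il1rl1 membrane, NM_001025602: gaaggaaacaaccaaTTGATCACCGAAGCA
Il1rl1 soluble, NM_001294171 and NM_010743: gaaggaaacaaccaaGTAAGGAGTGTCCCT

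The type 2 cytokines themselves were too low to judge in whole lung. Il4, Il5, Il13 and the decoy receptor Il13ra2 had means under 1 FPKM over the 10 libraries and were not tested in the fit across genes, while the other 6 members passed that filter. Il4, which drives T helper 2 differentiation and the IgE switch, was listed at 0.223, 0.0987 and 0 FPKM (Saline), 0.186, 0.429 and 0.142 FPKM (OVA) and 0.602, 0, 0.431 and 0.302 FPKM (Herb). These levels correspond to an estimated 3.24 fragments in all Saline libraries together, 11.05 in OVA and 15.3 in Herb, and the groups overlapped. Most of the estimated Il4 fragments, 25.4 of 29.6, were assigned to the non-coding transcript NR_027491. The rest were assigned to the coding NM_021283, which was above 0 in 1 Saline and 1 Herb library. These 2 rows overlap and have similar lengths, 605 and 590 bases, so their split is an estimate over few fragments. Which of the 2 RNAs the lung held was not tested.

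Il5, the eosinophil growth factor, was listed at 0.0869, 0.0944 and 0.0947 FPKM (Saline), 0.109, 0 and 0.238 FPKM (OVA) and 0.197, 0.265, 0.182 and 0.0593 FPKM (Herb). The OVA values lay on both sides of the Saline values, and 8.09, 12.3 and 18.9 fragments stood behind the 3 groups. Il13, which acts on airway epithelium and smooth muscle, was above 0 in 5 of 10 libraries, with 3.59, 6.84 and 2.50 fragments in the 3 groups. Il13ra2, a decoy that binds IL-13 without activating STAT6, was above 0 in 1 OVA and 2 Herb libraries and listed at 0 in all Saline libraries, with 3.26 fragments in OVA and 6.97 in Herb.

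No difference of these 4 genes was detectable at this depth (two-sided exact permutation tests on FPKM, 12 tests, unadjusted p from 0.229 to 1, lowest Benjamini-Hochberg adjusted p = 0.84). The smallest p such a test can give is 0.1 with 3 against 3 libraries and 0.057 with 3 against 4. More than 3 fragments, the number that a count of 0 allows, were estimated for Il4 in 5 libraries, for Il5 in 6, for Il13 in 2 and for Il13ra2 in 2. Fragment numbers and this limit cover counting error only. After rescaling, the 3 OVA values of Il4 (0.204 to 0.575 FPKM) lay above the 3 Saline values (0 to 0.157 FPKM), which was not the case on the deposited scale. The non-coding row NR_027491 alone had OVA values (0.142 to 0.429 FPKM) above the Saline values (0 to 0.0987 FPKM) as deposited, with a permutation p of 0.1. By ELISA of lavage fluid, the paper reported IL-4 protein as significantly raised in OVA mice and significantly lowered by DSE. Protein in lavage fluid and RNA in whole lung are different measures, and Il4 RNA was too low to set beside that result.

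**Figure D1:**
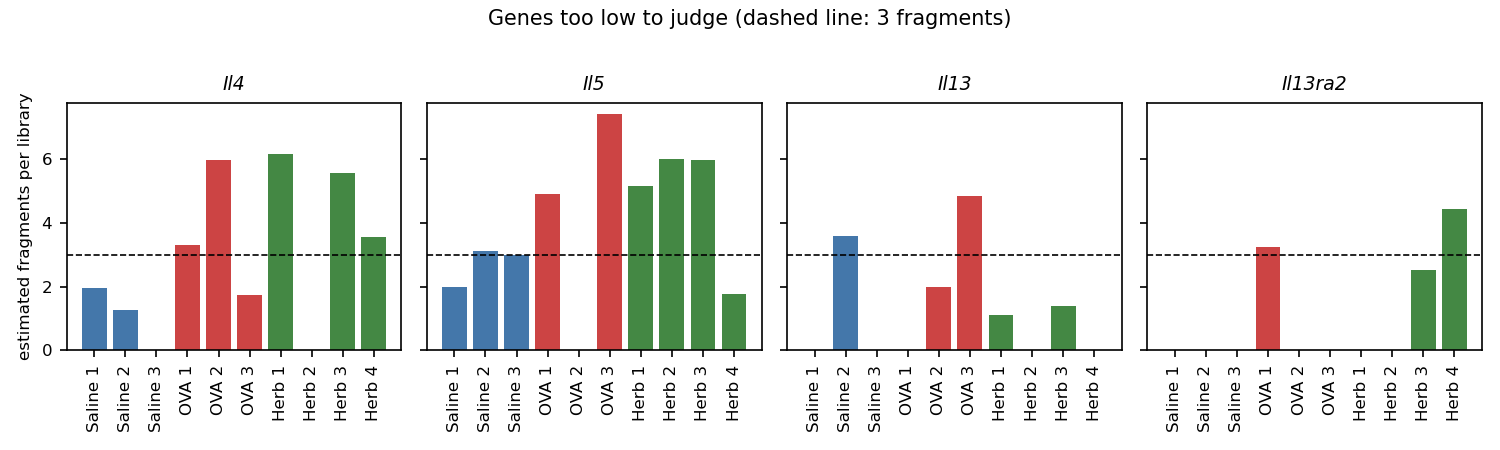
Estimated fragments per library (vertical axis) for Il4, Il5, Il13 and Il13ra2 in each Saline (blue), OVA (red) and Herb (green) library, with a dashed line at 3 fragments. More than 3 fragments were reached in 5, 6, 2 and 2 of the 10 libraries, and the groups overlap for each gene.

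Of the other ligands of this network listed for the analysis (Il9, Il25, Il3, Csf2, Il31 and Areg), none reached a mean of 1 FPKM, and Il9, Il25 and Il3 were listed at 0 in all 10 libraries. Markers of the cells known to make these cytokines were low too. Among 9 marker genes of T helper 2 and innate lymphoid type 2 cells, only Rora reached 1 FPKM on average, and their summed level was 14.9 to 16.9 FPKM in Saline, 4.44 to 6.46 FPKM in OVA and 7.40 to 13.6 FPKM in Herb. Rora was thus the largest single part of this sum over the libraries. The sum is on the deposited scale, where the median gene changed by -0.75 in OVA vs. Saline, and is not a measure of these cells. Gata3, their lineage factor, measured 1.205, 1.21 and 1.34 FPKM (Saline), 0.640, 0.607 and 0.784 FPKM (OVA) and 1.14, 1.05, 0.810 and 0.967 FPKM (Herb). Of 10 T cell markers 3 were tested and 2 were called lower in OVA vs. Saline on the deposited scale (57.9% of all genes) and 0 after rescaling (20.9% of all genes), with summed levels of 11.2 to 19.5, 3.86 to 9.79 and 7.48 to 16.2 FPKM. No T cell, T helper 2 or innate lymphoid marker was at 0 in all libraries. Their part in the cytokine values was not tested.

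Among the 6 members tested, 4 were called lower in OVA vs. Saline on the deposited scale and none higher (limma, adjusted p under 0.05). On that scale 61.2% of all genes tested were called, 57.9% lower and 3.28% higher. The median log2 fold change of the 6 members was -1.32, beside -0.75 for all genes. After rescaling, 1 of the 6, Il1rl1, was called higher and none lower, where 41.0% of all genes were called, 20.1% higher and 20.9% lower, and the members had a median of -0.58 beside -0.02. In whole lung tissue, fewer cells of a type and less RNA per cell cannot be told apart.

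**Figure D2:**
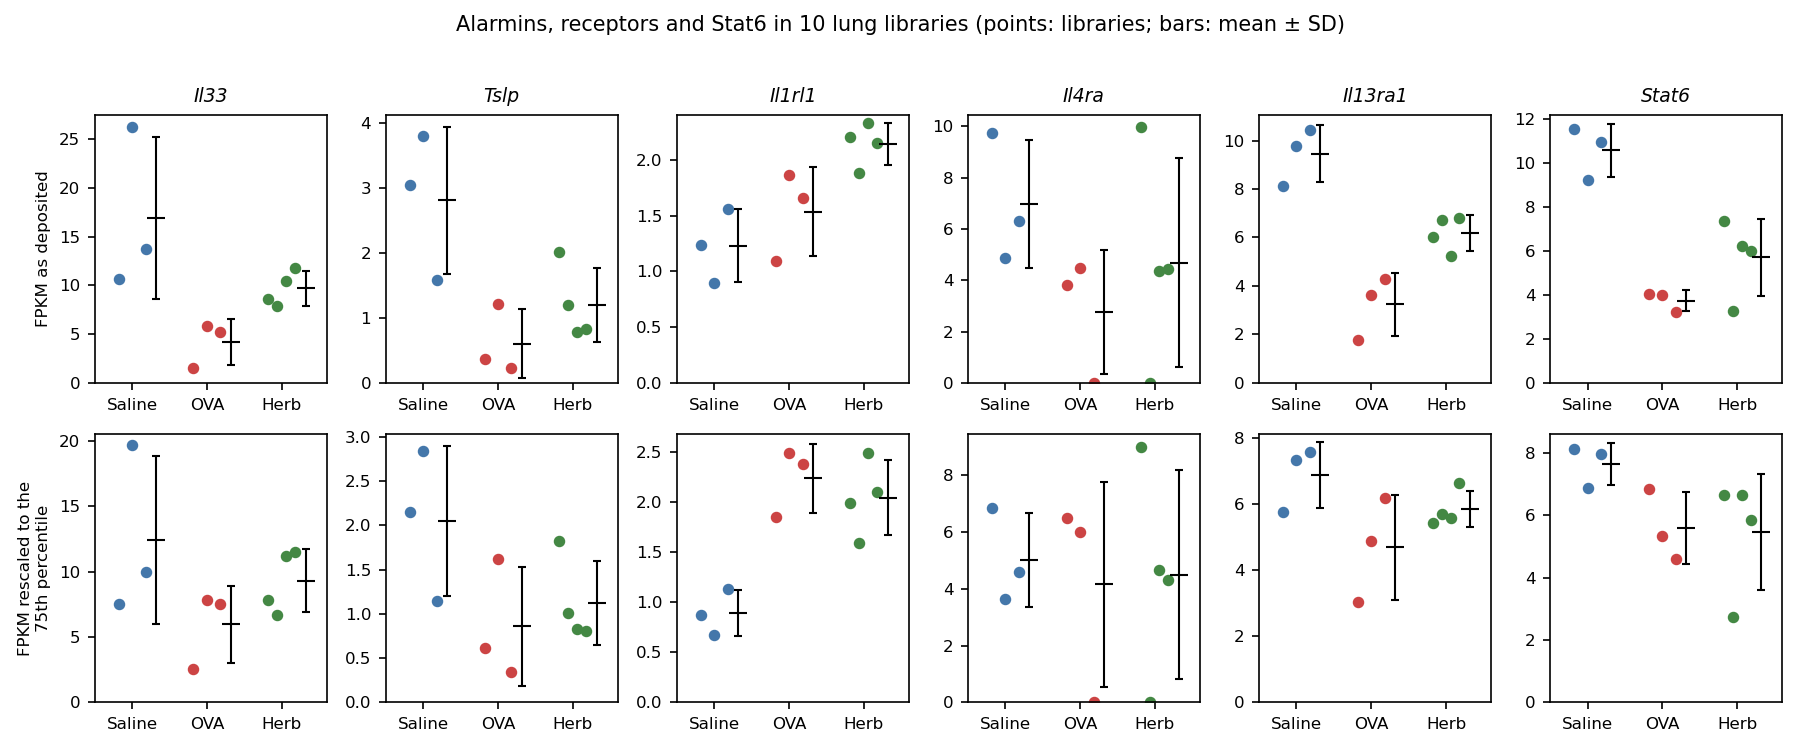
FPKM (vertical axes) of the 6 members tested in each library of the Saline (blue), OVA (red) and Herb (green) groups, as deposited (top) and rescaled to the 75th percentile (bottom); black bars are means ± SD. In the top row the OVA values of Il33, Tslp, Il4ra, Il13ra1 and Stat6 lie below all Saline values, and 1 Il4ra value is at 0. On that scale 57.9% of all genes were called lower. In the bottom row the OVA values of Stat6 lie below all Saline values and those of Il1rl1 above them. On that scale 20.9% of all genes were called lower and 20.1% higher.

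Il33, the alarmin stored in nuclei of alveolar type 2, stromal and endothelial cells, was called on the deposited scale in the OVA vs. Saline comparison, where it was lower, and in the Herb vs. OVA comparison, where it was higher, and in neither after rescaling. It measured 10.7, 26.3 and 13.7 FPKM (Saline), 1.52, 5.84 and 5.21 FPKM (OVA) and 8.64, 7.88, 10.4 and 11.8 FPKM (Herb). All OVA values lay below all Saline and all Herb values, while Herb and Saline overlapped, and Saline replicate 2 stood apart from its group. The deposited log2 fold change in OVA vs. Saline was -1.82 ± 0.42 (SE, n = 3 and 3; limma adjusted p = 0.00422), which is 0.283-fold, and 10.9% of all genes had a lower value. In Herb vs. OVA it was 1.16 ± 0.39 (n = 4 and 3; limma adjusted p = 0.0379), where 44.5% of all genes tested were called, 44.0% higher and 0.446% lower.

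Both Il33 differences were smaller after rescaling. The rescaled Saline values of Il33 were 7.53, 19.7 and 9.97 FPKM, the OVA values 2.57, 7.83 and 7.49 FPKM, and the Herb values 7.82, 6.68, 11.2 and 11.5 FPKM. The OVA and Saline groups then overlapped, with a log2 fold change of -0.95 ± 0.42 (limma adjusted p = 0.102), and Herb vs. OVA gave 0.65 ± 0.40 (limma adjusted p = 0.327). The Herb vs. OVA call on the deposited scale was also lost without OVA replicate 1, the lowest Il33 library (0.70, limma adjusted p = 0.125), and without Saline replicate 3 or any 1 of the Herb libraries (limma adjusted p from 0.0520 to 0.0789).

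Nearly all Il33 signal, 99.8%, was assigned to 1 of its 2 transcripts. NM_133775 (chr19:29925114-29960718, plus strand) starts upstream of NM_001164724 (chr19:29945790-29960704), and both encode the same number of codons, 266. NM_001164724 carried 0.0936% ± 0.0882 (SD, n = 3) of the summed Il33 FPKM in Saline, 0.103% ± 0.127 (n = 3) in OVA and 0.320% ± 0.141 (n = 4) in Herb, which is an estimated 2.77, 1.01 and 5.83 fragments. A STAT-type motif, TTC and GAA separated by any 4 bases, which reads the same on both strands, was searched in the RefSeq promoter windows of GRCm38.p6 from 250 bases before to 50 bases after each start. It was found in 2 of the 12 member windows (9 genes with a window on hand) and in 6.95% of all 32851 windows. The motif lay 36 bases before the start of the expressed NM_133775 and was not found in the window of NM_001164724, and the other match lay 167 bases before the start of the coding Il4 transcript. Both are shown with the motif in capitals and 10 bases on either side, since they are the only member windows that hold it.
Il33, NM_133775 start, chr19:29925067-29925096, plus strand: ctctgccaagTTCTGGGGAAtaaaaagccc
Il4, NM_021283 start, chr11:53618813-53618842, minus strand: ttggtctgatTTCACAGGAAaatttacctg

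Tslp, the alarmin that acts on dendritic cells and lymphocytes, had values only on the row of its non-coding transcript. The division of fragments between the rows of a gene is an estimate, and an exact 0 can be a failed one. Coding Tslp RNA is therefore not shown to be absent. The coding NM_021367 was listed at 0 in all 10 libraries, and NR_033206 carried all of the signal. That transcript measured 3.05, 3.796 and 1.58 FPKM (Saline), 0.364, 1.21 and 0.238 FPKM (OVA) and 2.01, 1.197, 0.779 and 0.827 FPKM (Herb). OVA lay below Saline without overlap, and Herb overlapped both. The deposited log2 fold change in OVA vs. Saline was -1.25 ± 0.31 (limma adjusted p = 0.00681). After rescaling, the Saline (1.15 to 2.84 FPKM) and OVA values (0.342 to 1.62 FPKM) overlapped, with -0.73 ± 0.31 (limma adjusted p = 0.0848). The rescaled Tslp value was called lower without Saline replicate 3 (-0.96, limma adjusted p = 0.0480) and without OVA replicate 2 (-1.01, limma adjusted p = 0.0267). The Herb vs. OVA value of Tslp was 0.47 ± 0.29 (limma adjusted p = 0.211) on the deposited scale, next to the 0.48 of the median gene. An estimated 181, 49.2 and 95.98 fragments lay behind the Tslp values of the 3 groups.

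Markers of the cell types that are known to hold Il33 in lung are given beside these values, on scales where 57.9% of all genes (deposited) and 20.9% (rescaled) were called lower in OVA vs. Saline. All 9 alveolar type 2 markers were tested and 7 were called lower in OVA vs. Saline, 6 after rescaling, and their summed level was 3428 to 4480 FPKM in Saline, 481 to 839 FPKM in OVA and 1110 to 2026 FPKM in Herb. Of 7 endothelial markers 5 were called lower, 4 after rescaling (2 lower and 1 higher with quantile normalization), and the sums were 349 to 429, 66.1 to 119 and 146 to 287 FPKM. Of the 5 fibroblast markers tested among 6, 3 were called lower on both scales and 2, Col1a1 and Col3a1, were called higher after rescaling (1.36 and 1.90), so this list did not move in a single direction, with sums of 131 to 189, 61.2 to 85.3 and 125 to 210 FPKM. No marker of these 3 lists was at 0 in all libraries. Their part in the alarmin values was not tested.

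Il1rl1, the IL-33 receptor, was the one tested member with a positive deposited log2 fold change in OVA vs. Saline. It measured 1.23, 0.900 and 1.56 FPKM (Saline), 1.09, 1.86 and 1.66 FPKM (OVA) and 2.20, 1.88, 2.34 and 2.16 FPKM (Herb). The Herb values lay above all Saline and all OVA values, while OVA and Saline overlapped. The deposited log2 fold change in OVA vs. Saline was 0.18 ± 0.16 (limma adjusted p = 0.342), yet 89.4% of all genes had a lower value. In Herb vs. Saline it was 0.50 ± 0.15 (limma adjusted p = 0.0373), where 3.32% of all genes were called higher, and 92.8% of genes had a lower value.

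After rescaling, Il1rl1 measured 0.871, 0.673 and 1.13 FPKM (Saline), 1.85, 2.50 and 2.38 FPKM (OVA) and 1.99, 1.60, 2.50 and 2.11 FPKM (Herb). Every ovalbumin-treated library, with or without extract, then lay above every Saline library. The log2 fold change was 0.78 ± 0.15 in OVA vs. Saline (limma adjusted p = 0.00425) and 0.69 ± 0.14 in Herb vs. Saline (limma adjusted p = 0.0209), where 20.1% and 7.57% of all genes were called higher. Leaving out each library in turn on this scale kept the OVA vs. Saline call of Il1rl1 (limma adjusted p from 0.00466 to 0.0178). In Herb vs. Saline the rescaled call was lost without Saline replicate 1 or 2, or Herb replicate 3 or 4 (limma adjusted p from 0.0517 to 0.0843), and the deposited call was lost without Saline replicate 1 or 2, or Herb replicate 1, 3 or 4 (limma adjusted p from 0.0741 to 0.123). Herb vs. OVA was 0.32 ± 0.15 (limma adjusted p = 0.106) on the deposited scale and -0.09 ± 0.14 (limma adjusted p = 0.712) after rescaling, so no difference between the extract and the asthma model was called and the direction depended on the scale.

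A ratio to another member of the same library does not depend on scaling, but it moves with both genes. Rescaled Stat6 was 6.89 to 8.12 FPKM in Saline, 4.61 to 6.86 FPKM in OVA and 2.75 to 6.66 FPKM in Herb. A higher ratio to Stat6 is thus not a change of Il1rl1 alone. Il1rl1 was 0.116 ± 0.0235 (SD, n = 3) times as high as Stat6 in Saline, 0.418 ± 0.131 (n = 3) in OVA and 0.404 ± 0.122 (n = 4) in Herb. The OVA ratios, 0.270, 0.468 and 0.516, and the Herb ratios, 0.2998, 0.580, 0.375 and 0.360, all lay above the Saline ratios, 0.107, 0.0977 and 0.142. Over the 6 ratios compared, of Il33, Tslp, Il1rl1, Il4ra and Il13ra1 to Stat6 and of Il33 to Il13ra1, this was the one whose groups did not overlap in OVA vs. Saline, and the exact permutation p was 0.1, the smallest that 3 against 3 allow (adjusted p = 0.9 over 18 tests).

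The 2 Il1rl1 rows with signal were examined apart. The membrane transcript measured 0.617, 0.469 and 0.610 FPKM (Saline), 0.818, 1.12 and 0.723 FPKM (OVA) and 1.89, 1.11, 1.28 and 1.35 FPKM (Herb), whereas the soluble NM_001294171 measured 0.618, 0.431 and 0.951 FPKM in Saline, then 0.274, 0.738 and 0.935 in OVA, then 0.311, 0.770, 1.06 and 0.808 in Herb. The membrane values of OVA and of Herb lay above all Saline values, and the soluble values overlapped in all comparisons. NM_010743, the soluble form whose start lies close to that of the membrane form, was listed at 0 in all 10 libraries. The difference between the 2 rows' fold changes was not itself tested.

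Both rows lay under a mean of 1 FPKM, so they were fitted with a filter at a mean of 0.1 FPKM, a setting chosen after the data were seen. On the deposited scale neither row was called in any comparison (membrane row, Herb vs. Saline 0.61 ± 0.15, limma adjusted p = 0.0577), where 29.3%, 17.7% and 4.23% of all 48616 rows were called in OVA vs. Saline, Herb vs. OVA and Herb vs. Saline. After rescaling, the log2 fold change of the membrane row was 0.71 ± 0.16 in OVA vs. Saline (limma adjusted p = 0.0180) and 0.72 ± 0.15 in Herb vs. Saline (limma adjusted p = 0.0440), where 16.3% and 2.28% of all rows were called in either direction, and 0.01 ± 0.15 in Herb vs. OVA (limma adjusted p = 0.987), where 0.362% were called. The soluble row gave 0.36 ± 0.23 (limma adjusted p = 0.319) and 0.19 ± 0.22 (limma adjusted p = 0.635) on that scale.

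The membrane form made up 49.95%, 52.1% and 39.1% of the Il1rl1 FPKM in Saline, 74.9%, 60.4% and 43.6% in OVA, and 85.9%, 59.1%, 54.7% and 62.5% in Herb. Means were 47.0% ± 6.98 (SD, n = 3), 59.6% ± 15.7 (n = 3) and 65.5% ± 13.9 (n = 4). Herb lay above Saline without overlap, and OVA overlapped both. The two-sided exact permutation p was 0.3 for OVA vs. Saline, 0.686 for Herb vs. OVA and 0.057 for Herb vs. Saline, the last being the smallest that 3 against 4 allow (adjusted p = 0.229 over 6 tests on shares). The soluble share rests on few fragments, an estimated 46.2, 53.5 and 66.9 in the 3 groups, against 168.5, 342.9 and 542.1 for the longer membrane row.

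**Figure D3:**
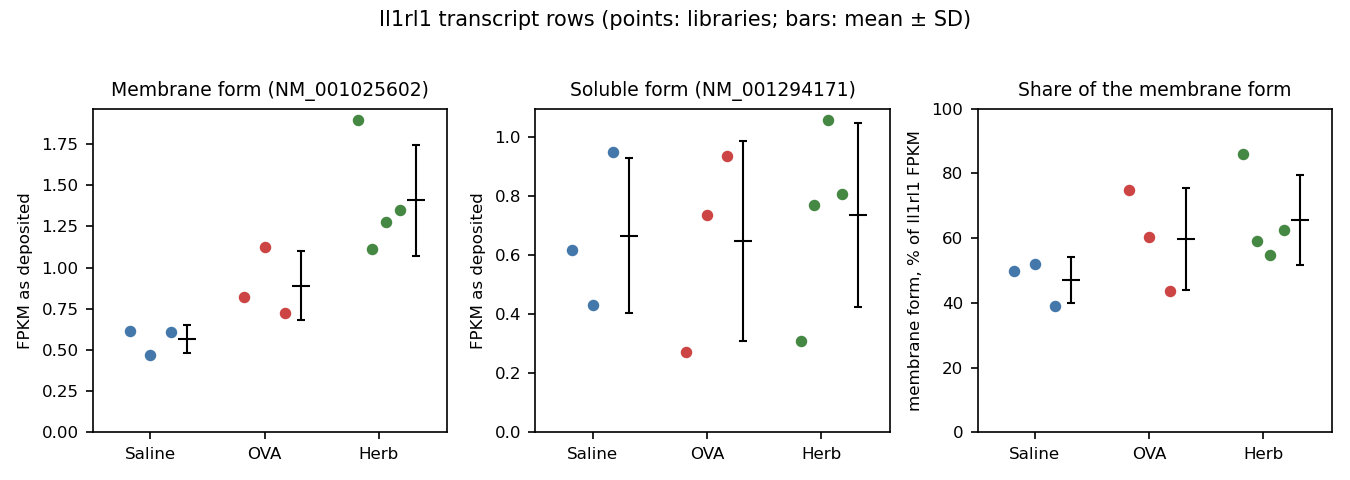
FPKM of the membrane row (left) and the soluble row (middle) of Il1rl1, and the percentage of the Il1rl1 FPKM on the membrane row (right), in each library; black bars are means ± SD. Membrane values lie between 0.469 and 0.617 FPKM in Saline and are higher in every OVA and Herb library, and soluble values overlap.

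Il1rl1 is carried by mast cells, T helper 2 cells and innate lymphoid cells. Of 8 mast cell and basophil markers 1 reached a mean of 1 FPKM, and it was called higher in OVA vs. Saline after rescaling, as were 20.1% of all genes, and not called on the deposited scale. The summed level of the 8 was 9.75 to 14.6 FPKM in Saline, 7.54 to 12.6 FPKM in OVA and 12.4 to 14.2 FPKM in Herb, and none was at 0 in all libraries. Their part in the Il1rl1 values was not tested.

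Il4ra encodes the chain shared by the receptors for IL-4 and IL-13. It was listed at 9.73, 4.86 and 6.32 FPKM (Saline), 3.83, 4.47 and 0 FPKM (OVA) and 9.96, 0, 4.38 and 4.43 FPKM (Herb). Its only row, NM_001008700 (chr7:125552120-125579474, plus strand, 11 exons), was at 0 in OVA replicate 3 and Herb replicate 2. In the table, a row without a gene symbol that is listed 3 rows before Il4ra stood at 10.8 FPKM in OVA replicate 3 and 12.8 FPKM in Herb replicate 2, and between 0.00258 and 3.32 FPKM in the other 8 libraries. The table does not pair that row with a gene, and its values were not added to Il4ra.

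The Il4ra fold changes rest on these zeros. The deposited log2 fold change in OVA vs. Saline was -1.37 ± 0.88 (limma adjusted p = 0.205) and the rescaled one -0.65 ± 0.95 (limma adjusted p = 0.609). Without both of the libraries at 0, a setting chosen after the data were seen, the deposited value was -0.59 ± 0.37 (limma adjusted p = 0.216), against a median of -0.75 for all genes. In the libraries above 0, the rescaled Il4ra level was 6.49 and 5.99 FPKM in OVA and 3.64 to 6.86 FPKM in Saline. No comparison of Il4ra was called with all libraries or in any alternative.

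Il13ra1, which pairs with IL-4Rα to form a receptor for IL-13 (X chromosome, chrX:36112110-36171259, plus strand), measured 8.14, 9.79 and 10.4 FPKM (Saline), 1.79, 3.63 and 4.31 FPKM (OVA) and 6.004, 6.72, 5.22 and 6.80 FPKM (Herb). The 3 groups did not overlap on the deposited scale, with Herb between OVA and Saline. The log2 fold change was -1.35 ± 0.23 in OVA vs. Saline (limma adjusted p = 0.000836) and 0.81 ± 0.21 in Herb vs. OVA (limma adjusted p = 0.0160). Rescaled values were 5.74 to 7.57 FPKM in Saline, 3.03 to 6.19 FPKM in OVA and 5.43 to 6.64 FPKM in Herb, so that the groups overlapped. The log2 fold changes of Il13ra1 were then -0.50 ± 0.20 (limma adjusted p = 0.0753) and 0.30 ± 0.19 (limma adjusted p = 0.335). Without OVA replicate 3, the rescaled Il13ra1 value in OVA vs. Saline was called lower (-0.69, limma adjusted p = 0.0218). In Herb vs. Saline, Il13ra1 was at -0.54 on the deposited scale (limma adjusted p = 0.0915). It was called lower without OVA replicate 1 (limma adjusted p = 0.0199) and when only the Herb and Saline groups were fitted.

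Stat6, the transcription factor activated by IL-4 and IL-13 (chr10:127642986-127660957, plus strand, 22 exons), measured 11.5, 9.21 and 10.97 FPKM (Saline), 4.05, 3.98 and 3.21 FPKM (OVA) and 7.35, 3.25, 6.23 and 5.98 FPKM (Herb). OVA and Herb lay below Saline without overlap, and Herb replicate 2 lay within the OVA range. The deposited log2 fold change was -1.28 ± 0.23 in OVA vs. Saline (limma adjusted p = 0.00120) and -0.82 ± 0.22 in Herb vs. Saline (limma adjusted p = 0.0262), where 22.7% of all genes were called lower. The Herb vs. Saline call of Stat6 was lost without any 1 of the Saline libraries and without Herb replicate 4 (limma adjusted p from 0.0518 to 0.0824). In Herb vs. OVA, Stat6 was at 0.46 ± 0.22 (limma adjusted p = 0.112), and it was called higher without Herb replicate 2 (0.66, limma adjusted p = 0.0205). The rescaled Stat6 level was 6.89 to 8.12 FPKM in Saline, above the 4.61 to 6.86 FPKM of OVA and the 2.75 to 6.66 FPKM of Herb. After rescaling, no Stat6 comparison was called: the values were -0.40 ± 0.27, -0.07 ± 0.25 and -0.47 ± 0.25 for OVA vs. Saline, Herb vs. OVA and Herb vs. Saline (limma adjusted p = 0.254, 0.886 and 0.224), and the Herb vs. OVA direction turned. That turn was undone by leaving out either of 2 libraries: the rescaled Herb vs. OVA value of Stat6 was 0.063 without OVA replicate 1 and 0.17 without Herb replicate 2, neither called.

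**Figure D4:**
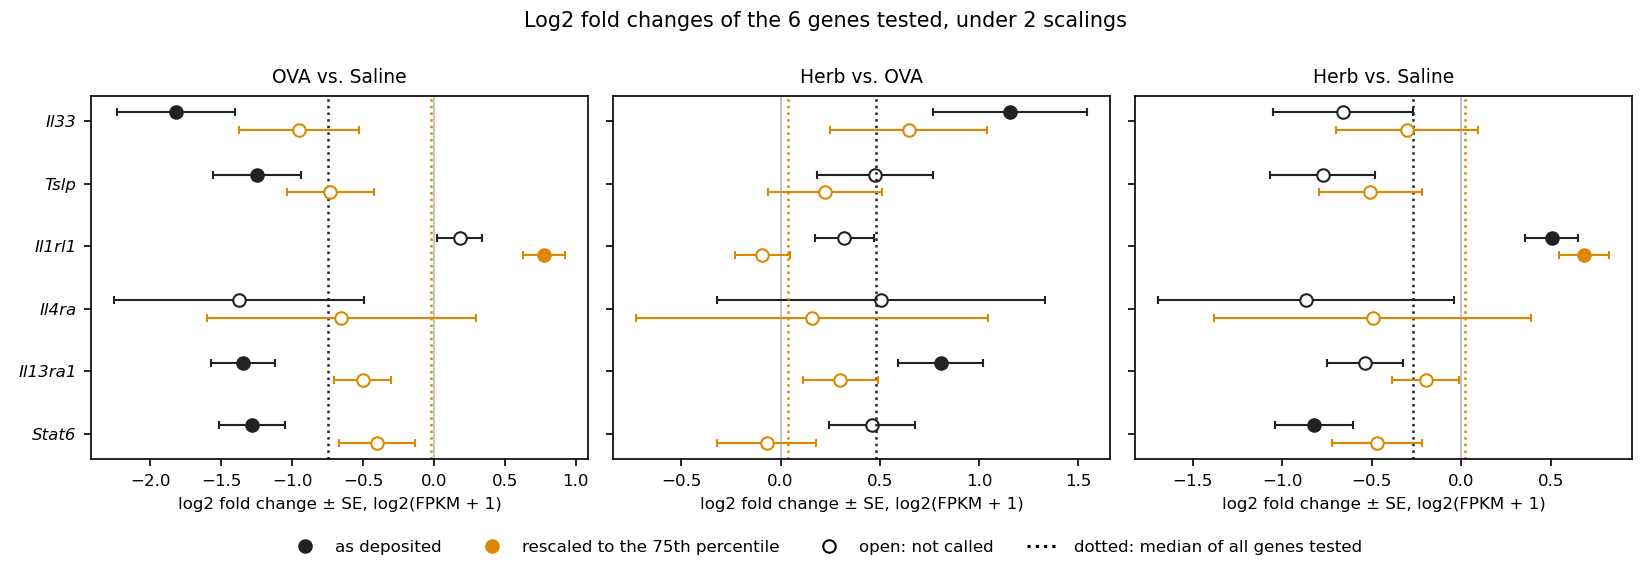
Log2 fold changes ± SE on the log2(FPKM + 1) scale (horizontal axes) of the 6 members in the 3 comparisons, as deposited (black) and rescaled to the 75th percentile (orange); filled points are calls and dotted lines the median of all genes tested. In OVA vs. Saline the members lie between -1.82 and 0.18 as deposited, with a median of -1.32 beside -0.75 for all genes. Il1rl1 is the filled orange point at 0.78 in that comparison.

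Across the members, Herb vs. OVA gave 2 calls, Il33 and Il13ra1, both higher, on the deposited scale, with 44.0% of all genes called higher, and 0 after rescaling, with 0.714% of all genes called, 0.366% higher and 0.348% lower. The median of the 6 members in Herb vs. OVA was 0.49 beside 0.48 for all genes on the deposited scale, and 0.19 beside 0.04 after rescaling. Herb vs. Saline gave 2 calls on the deposited scale, Il1rl1 higher and Stat6 lower, with 26.1% of all genes called (3.32% higher, 22.7% lower), and 1 after rescaling, Il1rl1 higher, with 14.3% called (7.57% higher, 6.76% lower). Fitted as single rows, the 5 member rows that passed the filter gave 4 lower in OVA vs. Saline (44.2% of 30194 rows called, 3.02% higher and 41.1% lower), 2 higher in Herb vs. OVA (32.4% called, 31.7% higher and 0.672% lower) and 0 in Herb vs. Saline (8.09% called, 1.83% higher and 6.26% lower), all by limma. Herb vs. OVA shares the OVA libraries with OVA vs. Saline, so the opposite signs of Il33 and Il13ra1 in the 2 comparisons are not independent of each other. A call depended on the scale for each of Il33, Tslp, Il13ra1 and Stat6 in OVA vs. Saline, and for Il1rl1 in the opposite sense.

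The other chains of these receptors differed in direction. Of 14 receptor genes listed, 8 were tested, and 1 was called higher and 1 lower in OVA vs. Saline on the deposited scale. On that scale 3.28% of all genes were called higher and 57.9% lower. Il1rap, the accessory chain that ST2 needs to signal, measured 5.77, 7.62 and 6.59 FPKM (Saline), 1.197, 2.69 and 1.46 FPKM (OVA) and 3.81, 5.69, 3.23 and 3.03 FPKM (Herb). OVA lay below both other groups, and Il1rap was called lower on both scales, though not after scaling to the protein-coding share, with changes of -1.49 (limma adjusted p = 0.000645) and -0.73 (limma adjusted p = 0.0197) on the log2 scale. Il3ra, the IL-3 receptor chain, was called higher on both scales, with 0.73 (limma adjusted p = 0.0120) and 1.35 (limma adjusted p = 0.00178).

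After rescaling, 20.1% of all genes were called higher and 20.9% lower in OVA vs. Saline. Of the 8 receptor genes tested, 2 had a Saline mean under 1 FPKM and passed the filter through the ovalbumin groups. Of the 8, 1 was called lower and 4 were called higher. Beside Il3ra these were Crlf2, the TSLP receptor chain (1.26, limma adjusted p = 0.00844), Csf2ra, the GM-CSF receptor chain (1.77, limma adjusted p = 0.0307), and Csf2rb2, the mouse IL-3 receptor beta chain (0.95, limma adjusted p = 0.00946). Crlf2 measured 2.47, 0.612 and 2.50 FPKM (Saline), 2.71, 3.19 and 2.98 FPKM (OVA) and 4.35, 3.53, 2.08 and 5.12 FPKM (Herb) on the deposited scale, where it was not called (0.55, limma adjusted p = 0.173). Il7r, Csf2rb and Sigirr were not called in OVA vs. Saline on either scale. Csf2rb2 and Csf2rb are near-identical copies, and counting could split their fragments.

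Of 17 kinases, adaptors and transcription factors of these pathways 15 were tested. Of the 15, 11 were called lower and 0 higher in OVA vs. Saline, with a median of -0.85 beside -0.75 for all genes. On that deposited scale 57.9% of all genes were called lower and 3.28% higher. After rescaling 20.1% of all genes were called higher and 20.9% lower. Of the 15, 3 were then called higher and 2 lower, with a median of -0.02. The 2 were Jak1, the kinase bound to IL-4Rα, and Rora, a factor of innate lymphoid cells. Jak1 measured 14.9, 15.4 and 11.9 FPKM in the Saline libraries against 3.48, 3.60 and 3.82 in the OVA libraries, with log2 fold changes of -1.69 and -0.80 on the 2 scales (limma adjusted p = 0.000151 and 0.00851). Rora had -2.18 and -1.39 (limma adjusted p = 0.000216 and 0.00256). The 3 higher after rescaling were Tyk2 (0.54), Stat5a (0.71) and Irak4 (0.36), and Irak4 was called lower on the deposited scale (-0.39), so its direction turned, as did that of Tyk2 (-0.05 as deposited). Stat3, Stat5b, Traf6, Jak2, Myd88 and Batf were called lower on the deposited scale, from -1.89 to -0.59, and were not called after rescaling, when Batf turned to 0.03.

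Of 7 feedback inhibitors 5 were tested. Over all genes, 57.9% were called lower and 3.28% higher in OVA vs. Saline as deposited, and 20.9% and 20.1% after rescaling. Ptpn6 and Bcl6 were called lower in OVA vs. Saline on the deposited scale, with -0.50 and -1.003, and not after rescaling, when Ptpn6 turned to 0.40. Socs3, a suppressor of cytokine signalling, was called higher after rescaling (1.04, limma adjusted p = 0.00518) and measured 5.42, 7.16 and 5.27 FPKM (Saline), 4.47, 6.96 and 9.37 FPKM (OVA) and 6.21, 5.16, 5.21 and 6.66 FPKM (Herb) as deposited. The deposited groups of Socs3 overlapped. Socs2 and Cish were not called.

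Genes known to respond to IL-4, IL-13 and STAT6 are given for their levels. Of 26 listed, 22 were tested, and 8 were called higher and 1 lower in OVA vs. Saline as deposited, and 10 higher and 1 lower after rescaling. Over all genes tested, 3.28% were called higher and 57.9% lower as deposited, and 20.1% and 20.9% after rescaling. Of these 22 genes, 17 had a mean under 1 FPKM in Saline and passed the filter through the ovalbumin groups, and the list contains genes that were seen to be higher in earlier results of the same data, so nothing is read from these counts. Retnla, a resistin-like protein of alternatively activated macrophages and epithelium, was listed at 0, 0 and 5.61 FPKM (Saline), 630, 1297 and 4155 FPKM (OVA) and 2110, 1142, 3489 and 3771 FPKM (Herb). Clca1, secreted by goblet cells, was listed at 0, 0.0544 and 0 FPKM (Saline), 15.8, 46.3 and 788 FPKM (OVA) and 104, 34.5, 256 and 596 FPKM (Herb). Every ovalbumin library lay above every Saline library for both genes, and the levels within OVA and within Herb were widely spread.

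Among the genes called higher in OVA vs. Saline on both scales were Chil4, Fcgbp, Arg1, Itln1 and Ccl8, with deposited log2 fold changes from 2.06 to 4.61. The limits given for the counts hold for these calls too. Postn, the matrix protein periostin, was called lower on both scales (-2.67 and -1.73). In Herb vs. OVA, 4 of the 22 were called higher on the deposited scale, Postn, Ccl11, Chil3 and Mrc1, where 44.0% of all genes were called higher, and 0 after rescaling, where 0.366% were. In Herb vs. Saline, 9 were called higher and 1 lower as deposited and 7 and 1 after rescaling. Over all genes tested, 3.32% were called higher and 22.7% lower as deposited, and 7.57% and 6.76% after rescaling.

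**Figure D5:**
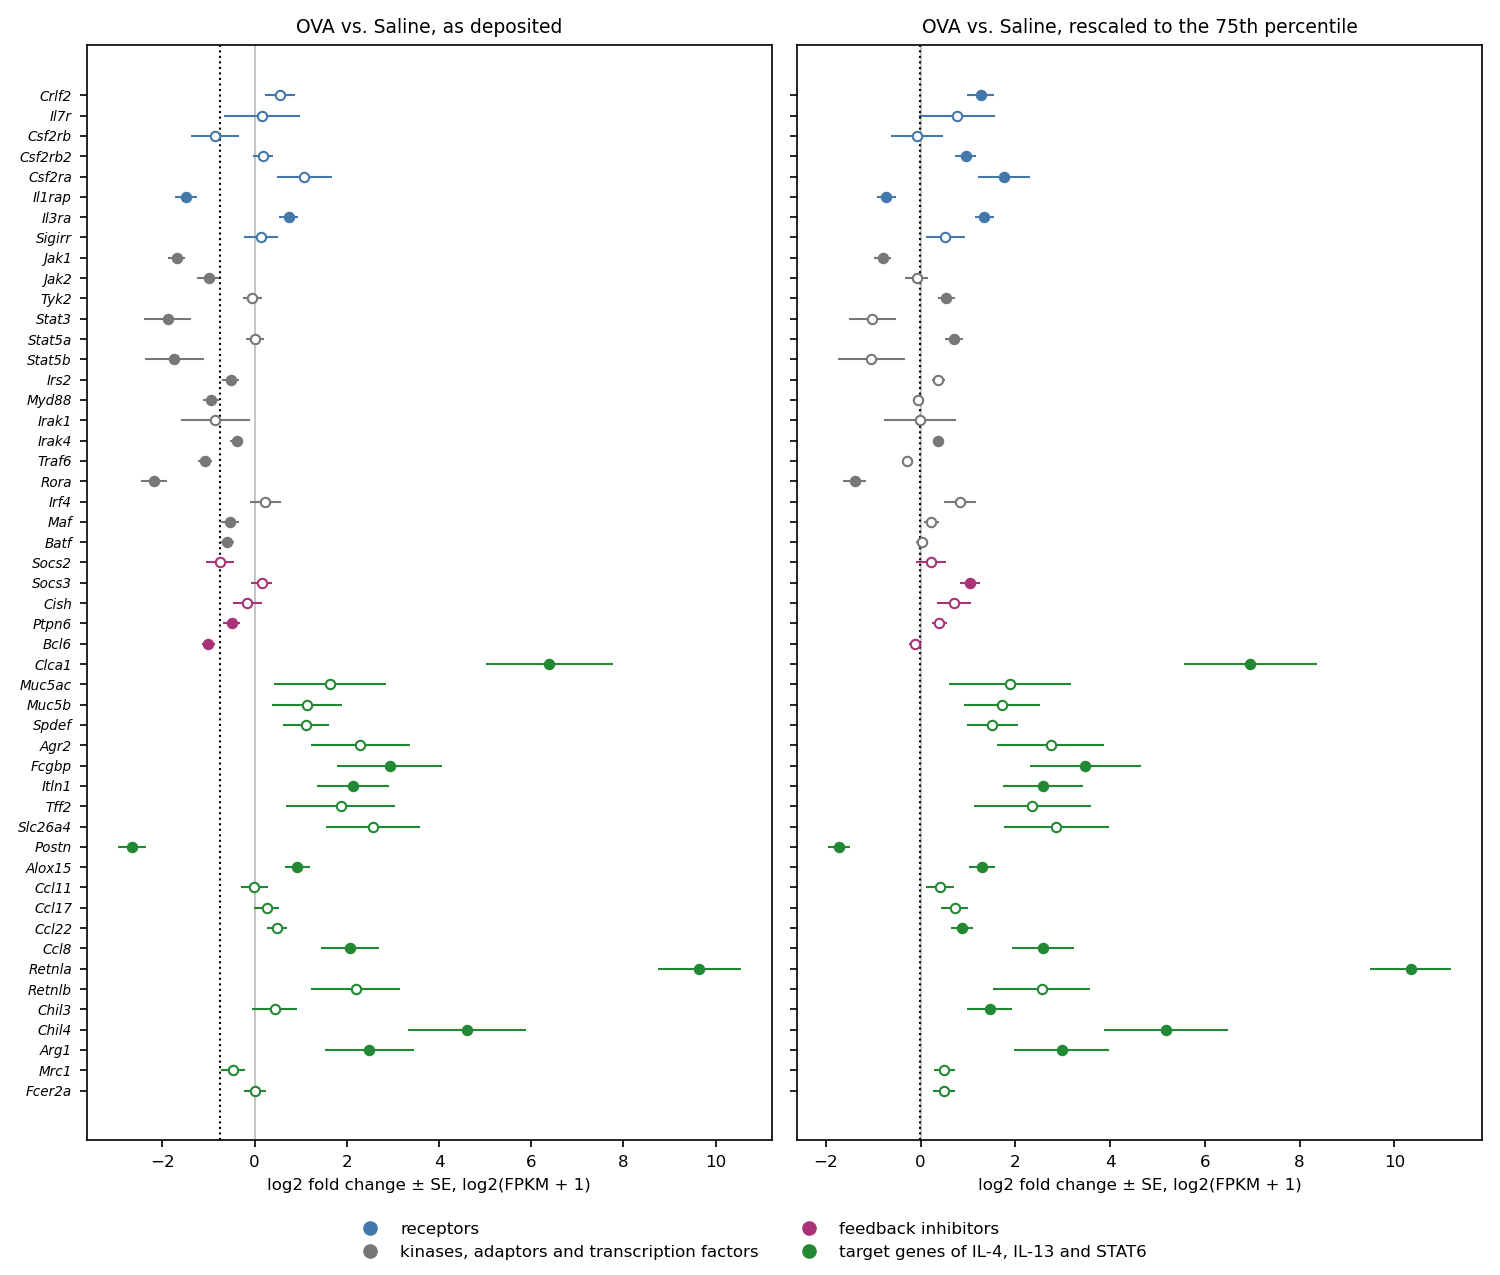
Log2 fold changes ± SE on the log2(FPKM + 1) scale (horizontal axes) in OVA vs. Saline for the tested receptors (blue), kinases, adaptors and transcription factors (grey), feedback inhibitors (purple) and target genes (green), as deposited (left) and rescaled (right); filled points are calls and the dotted line is the median of all genes. Retnla at 9.65 and Clca1 at 6.39 lie farthest to the right on the deposited scale, while most kinases lie to the left of 0 there and around 0 after rescaling.

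The genes most like each member over the 10 libraries were found by Pearson's r of the rescaled log2 values among 11204 other symbols. They were Prps1, H2afz and Atp5e for Il33 (highest r = 0.95), Eif4g2, Zdhhc20 and Cox5a for Il13ra1 (0.97), and Rnf19b, Limd1 and Rcc1 for Il1rl1 (0.98). For Tslp they were Zfp157, Otud1 and Zbtb44 (0.94), for Il4ra Rassf1, Dcaf8 and Mms19 (0.96), and for Stat6 Mettl7a1, Lamb1 and Heca (0.96). No member was among the 3 nearest of another. Between members, r was 0.86 for Il33 with Il13ra1, 0.81 for Il4ra with Stat6 and -0.34 for Il33 with its receptor gene Il1rl1. These values describe 10 libraries in 3 groups that also share depth and composition.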

How the data were processed

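Lung RNA was sequenced as paired ends, followed by trimming with cutadapt 1.10, alignment to mm10 with HISAT2, and assembly with StringTie 1.3.3b (submitters' processing notes). The authors deposited 1 table of FPKM from ballgown with 66548 transcript rows, of which 34943 carry a symbol. Labels and methods name different library kits, so whether strand was kept is uncertain and overlapping antisense fragments cannot be told apart. Since FPKM are not counts, no count model was used. The authors ran edgeR 3.16.5, per the labels, for their own tests.

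Sample titles gave the groups. The study gives its group sizes as mice, and each library was taken as 1 mouse. Rows were summed per symbol, and sums with a mean of at least 1 FPKM (11205) were fitted with limma 3.58.1 in R 4.3.3 on log2(FPKM + 1), with a variance trend on mean level and a single model over the 10 libraries without covariates. This scale understates changes of low genes. P-values were adjusted over all sums by the Benjamini-Hochberg method, and a call is an adjusted p under 0.05. Single rows were fitted likewise (30194 rows).

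Depth was estimated from the step of 1 fragment in values under 0.1 FPKM, and 26.7% to 31.9% of those values were whole multiples within 0.05 of a fragment, so fragment numbers are approximate. Alternatives were 75th percentile, protein-coding share and quantile rescaling, a pseudocount of 0.1, other filters, 2 groups only, no trend, a replicate block and leaving out each library. Positions and sequences are from RefSeq and GENCODE annotation of GRCm38.p6. The sequence and position of Tslp were not used here. The fit was run on simulated data in which a small set of genes was changed and library composition was not. That setting does not cover the unequal composition of these libraries.

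The members and gene lists were chosen with earlier results of these data known. All members are named. For each pathway list up to 8 genes are named, those with the largest change among the calls in OVA vs. Saline and then the highest mean, and Tyk2, Stat5a, Irak4, Ccl11, Chil3 and Mrc1 were named after their values were seen, to complete small counts. Python 3.11.15 with numpy 2.4.6 and pandas 2.3.3 was used otherwise.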

Additional observations from a re-analysis of the deposited data

Results flagged for a closer look

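Within the 4 Herb libraries, a value was marked when its gap to the nearest other value was a larger part of the range than Dixon's critical value for 4 values. This was examined in 28 groups of gene sums, rows and shares. The usual rate of about 1 mark in 20 by chance does not hold for these groups. Genes with 1 row entered as sum and as row, and rows at 0 throughout cannot be marked. A row above 0 in only 1 Herb library is always marked. In 2 of the 28 groups a value was marked. The row NM_001164724 of Il33 was lowest in Herb replicate 1 at 0.0107 FPKM, with the other Herb libraries between 0.0362 and 0.0390 FPKM, levels that all correspond to under 3 fragments. The coding row NM_021283 of Il4 was at 0.217 FPKM in Herb replicate 1 and listed at 0 in the other 3, which is 2.18 estimated fragments.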

How the results depend on the processing

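Counts of members called moved with the scale. In OVA vs. Saline it was 4 as deposited and 1 with 75th percentile, protein-coding share or quantile rescaling, and 4 with each library left out. In Herb vs. OVA it was 2 as deposited, 0 with these 3 rescalings, 1 without a filter and 1 to 2 with a library left out. In Herb vs. Saline it was 2 as deposited, 1 with the 3 rescalings and without a filter, 3 with 2 groups only, 0 for single rows and 0 to 3 with a library left out. Over all genes, OVA vs. Saline gave 6853 calls as deposited, 4066 with quantile normalization, 13331 for single rows and 6143 to 6862 with a library left out. Herb vs. OVA gave 4982, against 80, 122 and 160 with the 3 rescalings in the order given, 9786 for single rows and 3225 (without OVA replicate 1) to 5069. Herb vs. Saline gave 2921, against 1606, 1929 and 692, and 888 (without Saline replicate 2) to 3224. The rescalings change the median of all genes by construction, and the cause of the other changes was not tested.

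Replicate numbers did not pair the libraries: deviations of same-numbered libraries correlated at -0.00869 to 0.0953, and not every library correlated best with its own number. With the replicate block there were 6603, 4040 and 1342 calls in OVA vs. Saline, Herb vs. OVA and Herb vs. Saline, and 4, 1 and 0 members.

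The alternatives of this paragraph, and the leave-outs on rescaled values, were chosen after the data were seen. Without OVA replicate 3 and Herb replicate 2, Herb vs. OVA gave 2758 calls. With 75th percentile rescaling and a filter at 0.1 FPKM it gave 50 calls, Herb vs. Saline 1543, and members 1, 0 and 1 in the 3 comparisons. With that filter on single rows and rescaling, OVA vs. Saline was -0.95 for Il33, -0.73 for Tslp, -0.50 for Il13ra1 and -0.40 for Stat6, none called, and Herb vs. OVA was 0.64 for Il33 (1.15 as deposited, also not called), 0.30 for Il13ra1 and -0.070 for Stat6.

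The direction in Herb vs. OVA turned for Il1rl1, to -0.092 with 75th percentile rescaling (either filter), -0.18 with the protein-coding share and -0.085 with quantile normalization, and for Stat6 to -0.070, -0.17 and -0.090. On the rescaled values, leaving out OVA replicates 1 to 3 gave Il1rl1 -0.18, -0.035 and -0.059, leaving out Herb replicates 1 to 4 gave -0.086, -0.017, -0.16 and -0.10, and leaving out a Saline library left -0.092. For Stat6, -0.070 stayed without a Saline library and the values were -0.093 and -0.18 without OVA replicates 2 and 3, and -0.17, -0.17 and -0.12 without Herb replicates 1, 3 and 4, but 0.063 without OVA replicate 1 and 0.17 without Herb replicate 2. Il4ra ranged from -0.28 (without OVA replicate 3) to 1.199 (without Herb replicate 2) in Herb vs. OVA, and on the rescaled values it turned to -0.79 without OVA replicate 3 and -0.26 without Herb replicate 1 there, to 0.30 without OVA replicate 3 in OVA vs. Saline and to 0.19 without Herb replicate 2 in Herb vs. Saline. Il33 turned to 0.059 in rescaled Herb vs. Saline without Saline replicate 2. None of the turned values was called. After rescaling, OVA minus Saline was 0.288 FPKM for Il4 and 0.108 FPKM for Il5. Of 558 member values under alternatives, 388 kept direction and side of the threshold, 120 lost the call, 18 gained it and 32 turned. Depth limits the 4 members with few fragments and the soluble Il1rl1 row.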

Other observations

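Markers of the remaining cell types on hand are given as summed FPKM per library, with calls in OVA vs. Saline by limma, where 57.9% of all genes were called lower and 3.28% higher as deposited, and 20.9% and 20.1% after rescaling. Of 9 eosinophil markers 4 were tested, and 1 was called higher and 3 lower on both scales, with sums of 24.5 to 48.7 in Saline, 5.41 to 11.7 in OVA and 11.4 to 16.9 in Herb. The higher one was Alox15, Ear1 and Ear2 were among the lower, and the untested markers lay under a mean of 1 FPKM. In lavage fluid the paper counted more eosinophils in OVA than in saline mice, so these sums are not taken as a measure of eosinophil number. Of 6 alveolar type 1 markers 5 were tested and all 5 were called lower, 4 after rescaling, with sums of 596 to 710, 46.1 to 149 and 148 to 330. Of 7 club and basal cell markers 4 were tested and 3 were called lower, 2 after rescaling. Their sums were 13258 to 23483, 2697 to 5517 and 8019 to 12379, and the basal cell keratin Krt5 was listed at 0 in all libraries. Of 6 macrophage markers 4 were tested, with 1 called lower as deposited and 1 higher after rescaling, and sums of 28.0 to 45.3, 14.7 to 28.0 and 34.4 to 44.3. The 4 erythroid markers in the table, of 5 listed, summed to 5731 to 6965 in Saline, 30.9 to 561 in OVA and 1075 to 1582 in Herb, and 3 were called lower on both scales. The part of these cell types in the results was not tested.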
